A study of Homo sapiens with 3 samples.

Results

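The kinase genes HIPK2 and HIPK3 gave 5 of the 10562 circular RNAs (circRNAs) measured here, found as every listed circRNA whose host gene is HIPK2 (2 circRNAs) or HIPK3 (3 circRNAs). The study sequenced 1 library from each of 3 established human cell lines, namely SV-HUC-1, which the labels describe as urothelial and immortalized, and J82 and T24, which they place among bladder cancer lines. The labels name no treatment, and SV-HUC-1 was made with the SV40 T antigen, which inactivates p53, so it is not normal urothelium. Libraries were depleted of ribosomal RNA and digested with RNase R, an exonuclease that removes linear RNA, so the linear HIPK2 and HIPK3 messages were not measured.

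Homeodomain-interacting protein kinases are nuclear serine/threonine kinases of the DYRK family. HIPK2 phosphorylates p53 after DNA damage and acts on transcriptional corepressors and Wnt pathway factors, and HIPK3 is its close relative, first linked to apoptosis signalling and steroidogenic gene expression. A circRNA forms when a downstream splice donor joins an upstream acceptor, and it is counted from reads across that back-splice junction. The best known circRNA of HIPK3, circHIPK3, consists of the large second exon of the gene, which also holds the start codon. The main circRNA of HIPK2 comes from the corresponding exon.

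CircHIPK3 has been described as a binding partner of several microRNAs, including miR-124, miR-7 and, in bladder cancer cells, miR-558, a microRNA linked to heparanase expression. The mature sequences of miR-558 and miR-7-5p are shown as examples of these partners. They are written 5′ to 3′ from RefSeq (GRCh38.p14), with the seed (bases 2 to 8) in capitals. Neither microRNAs nor their binding were measured here.
hsa-miR-558: uGAGCUGCuguaccaaaau
hsa-miR-7-5p: uGGAAGACuagugauuuuguuguu

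Levels are in CPM, reads per 1000000 of a scaled library total, and each value is followed by its 95% counting interval. All reads were recovered as whole numbers, so the reads behind each value are given too. Listed circRNAs held 108574 reads in T24, 126041 in J82 cells and 128055 in SV-HUC-1. Since each line has 1 library and no replicate, an interval covers counting error only and differences between lines are without a replicate check. The epithelial host genes GRHL2, EPCAM, CDH1 and ESRP1 together had 480 circular reads in SV-HUC-1 cells, against 241 in J82 and 0 in T24, where all 4 were at 0 reads. Their part in the differences described here was not tested. In bulk RNA, fewer cells with a circRNA and fewer copies per cell cannot be told apart.

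CircHIPK3 (hsa_circ_0000284, chromosome 11, 33307958 to 33309057 on hg19, plus strand) was among the most abundant circRNAs of each line and was highest in T24. It had 352 reads in SV-HUC-1, or 7.06 CPM (6.35 to 7.84). In J82 it had 511 reads, or 10.8 CPM (9.89 to 11.8). In T24 it had 717 reads, or 16.8 CPM (15.6 to 18.1). The 3 counting intervals do not overlap, and the order of the levels was SV-HUC-1, J82, T24. By reads it ranked 9 in SV-HUC-1 cells, 5 in J82 cells and 3 in T24 among all listed circRNAs, and it alone took 0.275%, 0.405% and 0.660% of the circRNA reads of these lines. With 1580 reads over the 3 libraries it stood at rank 4 in the table, whereas a typical listed circRNA had 5 or 6 reads in a library.

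The main circRNA of HIPK2 (hsa_circ_0001756, chromosome 7, 139415730 to 139416814 on hg19, minus strand) was far scarcer but stood in the same order. It had 7 reads in SV-HUC-1, or 0.140 CPM (0.0565 to 0.289), 9 in J82, or 0.190 CPM (0.0870 to 0.361), and 14 in T24, or 0.328 CPM (0.179 to 0.550). These 3 intervals overlap, so the order was not resolved at this depth. Both main circRNAs have a like span on the genome, with an end minus start of 1099 bases for HIPK3 and 1084 for HIPK2. Among the 274 listed circRNAs that span between 1000 and 1200 bases, circHIPK3 had the most reads, the median was 16 reads over the 3 libraries, and the HIPK2 circRNA, with 30 reads, lay above 70.1% of them.

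**Figure D1:**
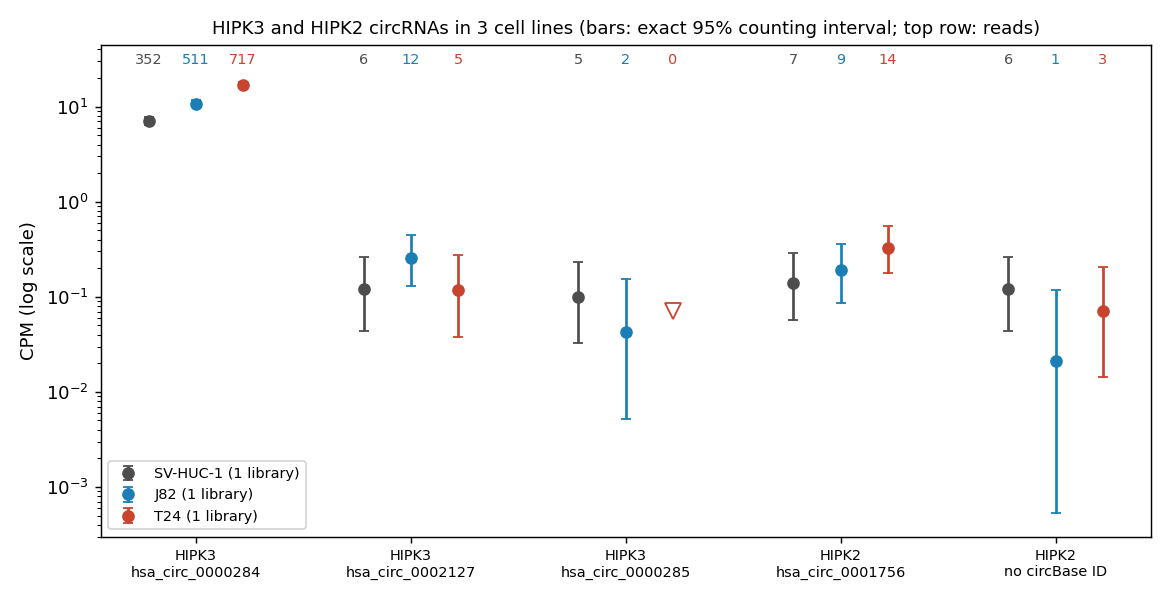
CPM (log scale) of the 5 circRNAs of HIPK3 and HIPK2 in SV-HUC-1, J82 and T24; points are single libraries, bars are exact 95% counting intervals, numbers along the top are reads, and the open triangle marks the level of 3 reads where a library had 0. The circHIPK3 points at 7.06, 10.8 and 16.8 CPM stand far above the other circRNAs, all of which lie below 0.5 CPM.

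Within each library, circHIPK3 outnumbered the HIPK2 circRNA by ratios close to each other in the 3 lines. This ratio needs no scaling between libraries. It was 50.3 (24.2 to 126) in SV-HUC-1 cells, 56.8 (29.7 to 124.9) in J82 cells and 51.2 (30.3 to 94.2) in T24. Per base of span the ratios were 49.6, 56.0 and 50.5. The ratio in T24 divided by that in SV-HUC-1 was 1.02, but its interval of 0.345 to 2.73 allows an almost 3-fold difference in either direction. The same division gave 1.13 (0.354 to 3.44) for J82 against SV-HUC-1 and 0.902 (0.342 to 2.26) for T24 against J82. No difference between the genes in how their main circRNA varied was therefore detectable, and the few HIPK2 reads set that limit.

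In T24, circHIPK3 was 2.38-fold (2.09 to 2.71) the level of SV-HUC-1. Its ratio was 1.53 (1.33 to 1.76) for J82 over SV-HUC-1, and 1.55 (1.39 to 1.74) for T24 over J82. The HIPK2 circRNA had ratios of 2.33 (0.881 to 6.83), 1.35 (0.449 to 4.28) and 1.72 (0.694 to 4.51) in these 3 comparisons, with all 3 intervals taking in 1. Both cancer lines were set against the same SV-HUC-1 library, so their ratios share its counting error. Over the 15 ratios of single circRNAs between lines, the 3 whose interval left out 1 were those of circHIPK3. Such intervals are narrow at its depth, and this was common in the table. Among circRNAs with at least 100 reads in either library the interval left out 1 for 75.1% of 181 in T24 against SV-HUC-1, 76.2% of 210 in J82 against SV-HUC-1 and 76.7% of 193 in T24 against J82. With at least 10 reads the shares were 44.1%, 43.5% and 40.9%.

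**Figure D2:**
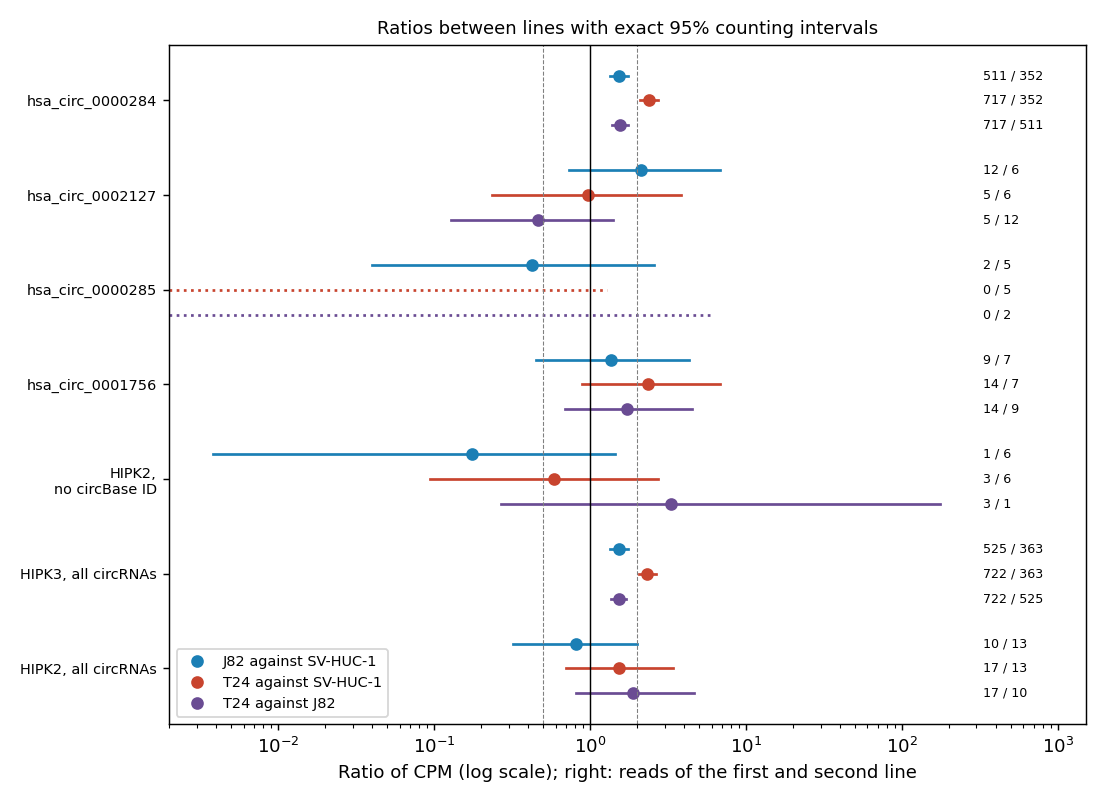
Ratios of CPM between lines (log scale) for each HIPK3 and HIPK2 circRNA and for each gene's sum, with exact 95% counting intervals; dashed lines mark 2-fold, dotted bars reach from 0 reads to the upper limit, and the reads of both lines are at the right. The intervals of circHIPK3 and of the HIPK3 sum lie above 1 in all 3 comparisons, and every HIPK2 interval takes in 1.

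Counted as in the rest of the table (at least 10 reads in either library, and a difference of at least 1 in log2(CPM + 0.0234), that is 2-fold), both circRNAs that could be compared between T24 and SV-HUC-1 were higher in T24. These were circHIPK3, with a log2 difference of 1.25, and the HIPK2 circRNA, with 1.10, which fell to 0.79 and under the threshold with 5 times the pseudocount. The HIPK2 circRNA, at 14 reads in T24 and 7 in SV-HUC-1, passed the filter only through T24, so it could enter only as higher there. The members that the filter left out (hsa_circ_0002127, hsa_circ_0000285 and the HIPK2 circRNA without a circBase ID) had fewer reads in T24. Theirs were 5, 0 and 3 in T24 against 6, 5 and 6 in SV-HUC-1. Of these, hsa_circ_0000285 and the HIPK2 circRNA reached the 5 reads needed for listing only in SV-HUC-1. The listing thus favoured fewer reads in T24, and no direction is read from these members. Among all 3847 circRNAs compared, 21.4% were at least 2-fold higher in T24, and 48.7% passed 2-fold in either direction. Since low counts scatter widely, circHIPK3 is better read against other abundant circRNAs. Of 181 with at least 100 reads in either library, 33 (18.2%) were at least 2-fold higher in T24, and 26, circHIPK3 included, had a difference as large as that of circHIPK3. Its smaller differences were matched or exceeded by 74 of 210 such circRNAs in J82 against SV-HUC-1 and by 48 of 193 in T24 against J82. In J82 against SV-HUC-1, 0 of 2 members compared passed 2-fold, where 46.2% of 3996 circRNAs did. In T24 against J82, 0 of 3 did, where 44.7% of 3679 did. In both of these comparisons hsa_circ_0002127 lay at the threshold (0.95 and -0.98) and passed it with a smaller pseudocount (1.01 and -1.04).

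**Figure D3:**
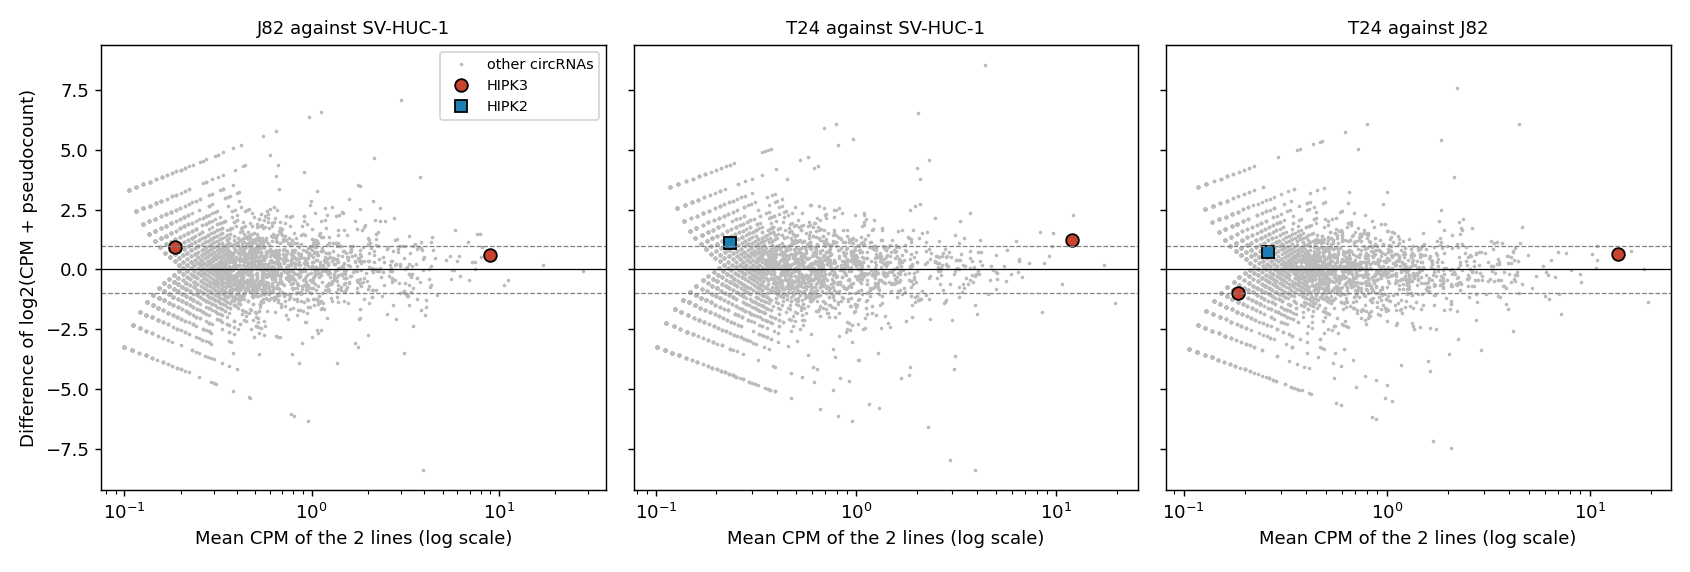
Difference of log2(CPM + pseudocount) between lines against mean CPM (log scale) for every circRNA with at least 10 reads in either library, with HIPK3 circles and HIPK2 squares; dashed lines mark 2-fold. CircHIPK3 sits at the right edge of each panel at 0.61, 1.25 and 0.63, in a range of levels where few circRNAs are found.

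A rise in the order SV-HUC-1, J82, T24 was seen in 34 (14.7%) of the 231 circRNAs with at least 100 reads in any library. In 9 of these 231, circHIPK3 included, each of the 2 steps was at least as large as the smaller step of circHIPK3. When both cancer lines were set against SV-HUC-1 in 1 model, limma gave circHIPK3 a log2 difference of 0.93 ± 0.74 (SE; adjusted p = 0.826) and the HIPK2 circRNA 0.74 ± 0.76 (adjusted p = 0.843), each higher in 2 of 2 cancer lines. That fit treats J82 and T24 as replicates, has 1 residual degree of freedom and called 0 (0%) of 4513 circRNAs, with 218 at an unadjusted p under 0.05. It takes the lone SV-HUC-1 library to vary as the cancer lines do. With edgeR (quasi-likelihood, recovered reads) 46 were called, none of them from HIPK2 or HIPK3, with an adjusted p of 0.883 for circHIPK3.

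The 3 other circRNAs had 12 or fewer reads in every line. In HIPK3, hsa_circ_0002127 (33307958 to 33308498) has the same start as circHIPK3 and ends 559 bases before it. Its reads were 5 in T24 (0.117 CPM), 12 in J82 cells (0.254 CPM) and 6 in SV-HUC-1 (0.120 CPM), so it was highest in J82 and did not follow the order of circHIPK3. Against SV-HUC-1 its ratio came to 2.11 (0.732 to 6.84) for J82 and 0.972 (0.235 to 3.82) for T24. Shared starts are common in the table, where 34.1% of circRNAs have the start of another.

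The other minor circRNA of HIPK3, hsa_circ_0000285 (33362513 to 33363232), starts 54015 bases downstream of the end of hsa_circ_0002127. Its reads were 5 in SV-HUC-1 cells (0.100 CPM), 2 in J82 cells (0.0423 CPM) and 0 in T24 cells, where the floor of 3 reads equals 0.0702 CPM and the counting interval reaches 0.0863 CPM. The ratio of T24 to SV-HUC-1 had an upper limit of 1.27. The ratio of J82 to SV-HUC-1 was 0.421 (0.0401 to 2.57), and neither comparison resolved a difference.

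In HIPK2, the circRNA without a circBase ID (139259873 to 139260722, minus strand) ends 155008 bases before hsa_circ_0001756 on the genome, which on the minus strand is downstream of it. Its reads were 3 in T24 (0.0702 CPM), 1 in J82 cells (0.0211 CPM) and 6 in SV-HUC-1 (0.120 CPM). It was highest in SV-HUC-1, where it nearly equalled the main HIPK2 circRNA. Against SV-HUC-1 the ratio came to 0.176 (0.00382 to 1.45) for J82 and 0.583 (0.0944 to 2.73) for T24. The paralogous exons of HIPK2 and HIPK3 resemble each other, and how reads that match both were treated is not stated in the sources used here.

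Nearly all circular reads of HIPK3 therefore came from 1 circRNA. CircHIPK3 held 97.0% (94.6% to 98.5%) of them in SV-HUC-1 cells, 97.3% (95.6% to 98.5%) in J82 cells and 99.3% (98.4% to 99.8%) in T24. Over the 3 libraries its share was 98.1%, the highest among the 692 host genes with at least 3 listed circRNAs and 100 reads, where the median was 51.4%. HIPK2 was divided more evenly than HIPK3 in SV-HUC-1 and T24, and this was not resolved in J82. Its main circRNA hsa_circ_0001756 held 7 of 13 reads in SV-HUC-1 cells (53.9%, 25.1% to 80.8%), 9 of 10 in J82 cells (90%, 55.5% to 99.8%) and 14 of 17 in T24 (82.4%, 56.6% to 96.2%), and its intervals overlap between all lines. Over the 3 libraries its share was 75%, above the median of 66.7% for the 951 host genes with exactly 2 circRNAs. Because the table lists a circRNA only where some library reached 5 reads, still rarer circRNAs of either gene are not in these shares.

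The minor circRNA with the shared start was scarcest relative to circHIPK3 in T24. For 100 reads of circHIPK3, hsa_circ_0002127 had 0.697 in T24, 2.35 in J82 cells and 1.70 in SV-HUC-1. The ratio of circHIPK3 to hsa_circ_0002127 changed 3.36-fold (1.095 to 12.3) from J82 to T24. The same division gave 2.44 (0.616 to 10.2) for T24 over SV-HUC-1 and 0.726 (0.221 to 2.11) for J82 over SV-HUC-1. The ratio of circHIPK3 to hsa_circ_0000285 was higher in T24 by at least 1.85-fold over SV-HUC-1, the lower limit of its interval. These were the only 2 of 12 such differences whose interval left out 1. The intervals were not adjusted for their number, and each rests on a minor circRNA with 5 or fewer reads in T24. In addition, hsa_circ_0000285 reached the 5 reads needed for listing only in SV-HUC-1, and its interval makes no allowance for that selection.

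Summed over its circRNAs, HIPK3 stood at 16.9 CPM in T24, 11.1 in J82 cells and 7.29 in SV-HUC-1, and ranked 12 by reads among 4231 host genes. Relative to SV-HUC-1 the sum was 2.32-fold (2.04 to 2.64) higher in T24 and 1.52-fold (1.33 to 1.75) higher in J82. HIPK2, at rank 1838, had 13 reads in SV-HUC-1 (0.261 CPM), 10 in J82 (0.211 CPM) and 17 in T24 (0.398 CPM). Its ratios to SV-HUC-1 were 0.810 (0.318 to 2.001) in J82 and 1.52 (0.698 to 3.41) in T24. The HIPK2 sum thus changed its order against the main circRNA, with J82 lowest, and its 3 levels did not differ beyond counting error. HIPK1 and HIPK4 had 0 listed circRNAs.

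The circRNAs with the levels closest to circHIPK3 over the 3 libraries came from DLG1, PVT1, SETD3, CORO1C and LPAR1. Closeness was taken as the largest absolute difference in log2 CPM in any line. That of DLG1, a scaffold protein of cell junctions (hsa_circ_0008500), was within 0.44 and reached 12.6 CPM in T24 from 6.40 in SV-HUC-1 and 7.95 in J82. That of the noncoding RNA gene PVT1 (hsa_circ_0001821) was within 0.57. SETD3, an actin histidine methyltransferase (hsa_circ_0000567), was within 0.62 but stood level between J82 (10.6 CPM) and T24 (10.9 CPM). CORO1C, an actin-binding coronin (hsa_circ_0000437), was within 0.75, and LPAR1, a lysophosphatidic acid receptor (hsa_circ_0087960), within 0.76. LPAR1 started lower than circHIPK3, at 4.17 CPM in SV-HUC-1, and ended above it, at 20.2 CPM in T24.

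**Figure D4:**
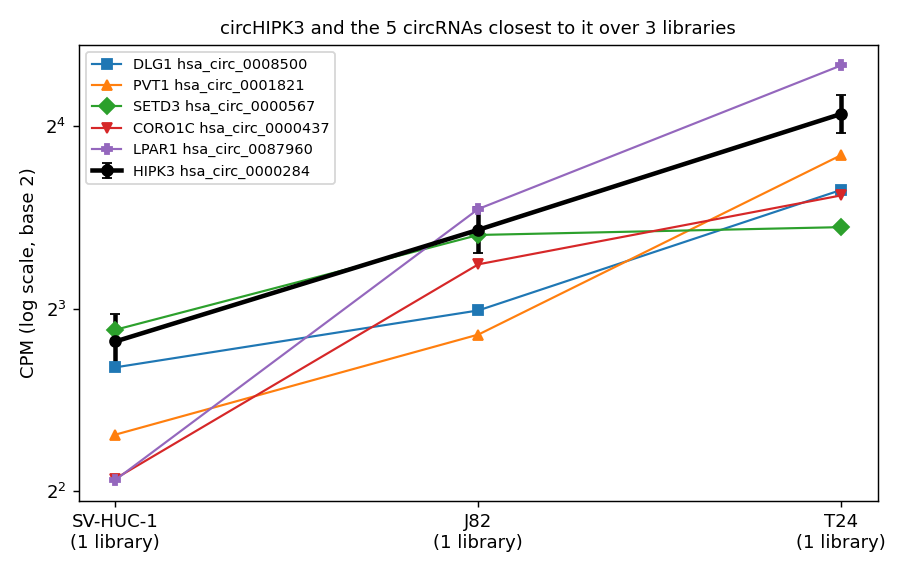
CPM (log scale, base 2) of circHIPK3, with exact 95% counting intervals, and of the 5 circRNAs of other genes closest to it in SV-HUC-1, J82 and T24, 1 library each. DLG1 and PVT1 climb in the same order as circHIPK3, whereas SETD3 is almost flat from J82 (10.6 CPM) to T24 (10.9 CPM).

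Kinases related to HIPK2 and HIPK3 contributed few circRNAs. Of 14 genes (other HIPK, DYRK, CLK, SRPK kinases and PRPF4B), 6 had a listed circRNA. DYRK1A, a kinase that acts in neural development and the cell cycle, was the abundant one, with 103 circular reads in T24, 307 in J82 cells and 159 in SV-HUC-1. Its ratio to SV-HUC-1 was 2.03 (1.67 to 2.48) for J82 but 0.756 (0.584 to 0.974) for T24, and it was thus highest in J82, where circHIPK3 was intermediate. Between J82 and SV-HUC-1, 1 of the 3 relatives compared was at least 2-fold higher and 0 lower (median log2 difference 0.92, with DYRK1A 1.02, CLK3 0.92, SRPK2 0.74). Of 2647 host genes, 488 were higher there, and 37.9% passed 2-fold in either direction (median -0.03). Between T24 and SV-HUC-1, 0 of 2 passed (median -0.05), where 40.9% of 2616 did (median -0.04). Between T24 and J82, DYRK1A and CLK3 of 3 were lower (median -1.33). Of 2513 host genes, 521 were lower there, and 37.4% passed in either direction (median -0.01). CLK3, a kinase of splicing factors, had only 3 reads in T24 and 10 in J82, and the interval of its ratio (0.332, 0.0587 to 1.29) took in 1. With 5 times the pseudocount it was no longer past 2-fold (-0.81), and DYRK1A in J82 fell just under the threshold there and when scaled to listed circRNA reads (0.97).

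Among 40 genes for partners and substrates of HIPK kinases, 27 had a listed circRNA, and genes past 2-fold were found in both directions in the comparisons with SV-HUC-1. In J82 against SV-HUC-1, 5 of 24 compared were at least 2-fold higher and 5 lower (median -0.11). In T24 against SV-HUC-1, 6 of 25 were higher and 5 lower (median 0.44), and in T24 against J82 4 of 23 were higher and 0 lower (median 0.01). Among all host genes, 488 of 2647 were higher and 516 lower in J82 against SV-HUC-1. In T24 against SV-HUC-1, 490 of 2616 were higher and 579 lower, so the partners' shares were close to these. In T24 against J82, 418 of 2513 were higher and 521 lower. There the partners' share was close for higher genes and smaller for lower ones. HMGA1 (13 reads against 2) and CTNNB1 (12 against 6) entered that comparison only through T24.

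MDM2 and SENP1 passed 2-fold upward in both cancer lines. Both were under 10 reads in SV-HUC-1 and passed the filter only through the cancer lines, so they could pass 2-fold only upward. MDM2, the ubiquitin ligase of p53 that also targets HIPK2, had 51 reads in J82 and 39 in T24 against 8 in SV-HUC-1, ratios of 6.72 (3.16 to 16.4) and 5.69 (2.62 to 14.1). SENP1, a SUMO protease, had 9, 22 and 17 reads, and the interval of its T24 ratio took in 1 (2.20, 0.929 to 5.61). With 5 times the pseudocount its log2 differences of 0.97 in J82 and 0.79 in T24 were under the threshold. RUNX1, CTBP2, TLE1 and TCF7L1 passed 2-fold downward in both. Of these, TLE1 and TCF7L1 passed the filter only through SV-HUC-1, so they could pass 2-fold only downward. RUNX1, a transcription factor that HIPK2 phosphorylates, had 486 reads from its 10 circRNAs in SV-HUC-1 cells, against 46 in J82 and 30 in T24, and was 10.03-fold (7.40 to 13.9) and 13.9-fold (9.60 to 20.8) lower.

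Reads are given here in the order SV-HUC-1, J82, T24. The corepressor gene CTBP2 had 196, 78 and 57 reads and was 2.39-fold (1.83 to 3.14) lower in J82 and 2.95-fold (2.19 to 4.03) lower in T24. Its paralogue CTBP1, a known HIPK2 substrate, went the other way, with 112, 260 and 187 reads and ratios of 2.45 (1.95 to 3.08) in J82 and 1.95 (1.53 to 2.48) in T24. TLE1, a Groucho corepressor, had 20, 4 and 4 reads. TCF7L1, a Wnt pathway transcription factor, had 12, 1 and 0, and its T24 ratio to SV-HUC-1 had an upper limit of 0.420. With 3 reads as the floor and the 12 reads taken as exact, it was at least 3.43-fold lower there. Host gene sums mix circRNAs that can differ, and circular reads do not measure the linear message of these genes.

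**Figure D5:**
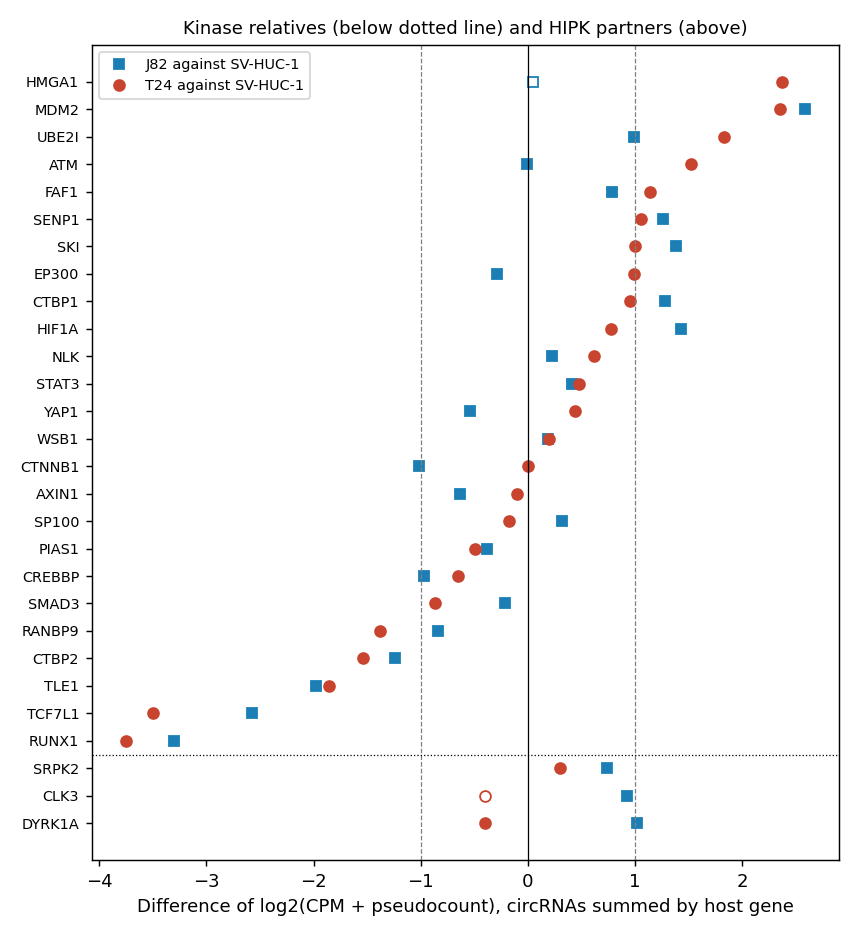
Difference of log2(CPM + pseudocount) to SV-HUC-1 of circRNAs summed by host gene, for the kinase relatives and HIPK partners that had at least 10 reads in either library of a comparison; squares are J82, circles T24, and open symbols are comparisons under 10 reads. MDM2 lies at 2.58 and 2.35 and RUNX1 at -3.30 and -3.75, while most genes fall between the dashed 2-fold lines in at least 1 cancer line.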

How the data were processed

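The authors deposited 1 table that gives, per circRNA, its host gene, IDs, position and CPM in 3 lines, normalized with TMM factors per its name. The submitters' processing notes name hg19 as the build and list RSEM 1.2.15, edgeR, STAR and Bowtie2 2.1.0 as tools, without their roles. The back-splice caller, and whether starts count from 0 or 1, are not given in the sources used here, so a span may be 1 base longer. Each line's column was matched by name (0 value columns were left out), and the SV-HUC-1 column differs slightly in spelling.

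Dividing by a column's smallest value gave whole reads for 100% of values (tolerance 0.01 reads). A single read equals 0.0234 CPM in T24, 0.0211 in J82 cells and 0.0201 in SV-HUC-1. Ratios of CPM carry exact Clopper-Pearson 95% intervals on the reads, levels exact Poisson ones, and differences of within-library ratios exact conditional ones (Python 3.11.15, scipy 1.17.1). Reads carry no molecular identifiers. The pseudocount was 1 read of the shallowest library. Both cancer lines against SV-HUC-1 were fitted over all circRNAs with at least 10 reads in any library by limma 3.58.1 and, on recovered reads, edgeR 4.0.16, adjusted by Benjamini-Hochberg. Scaling by listed reads or DESeq2 1.42.0 size factors, 2 pseudocounts, 2 filters and a 4-fold threshold were alternatives. Scripts were tested on simulated reads. HIPK2 and HIPK3, the gene lists and the naming rule (every member, the 5 circRNAs closest to circHIPK3, list genes past 2-fold one way in both cancer lines) were chosen with earlier results of these data known. CTBP1, DYRK1A and CLK3 were named after their values were seen. The epithelial genes GRHL2, EPCAM, CDH1 and ESRP1 were outside these lists and the naming rule.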

Additional observations from a re-analysis of the deposited data

Results flagged for a closer look

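The start-sharing HIPK3 circRNA hsa_circ_0002127 lay on opposite sides of SV-HUC-1 in the cancer lines, with a ratio of 2.11 in J82 and 0.972 in T24. The HIPK2 sum did so as well, with 0.810 in J82 and 1.52 in T24. With 1 library per line neither difference was tested, and all 4 counting intervals take in 1.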

How the results depend on the processing

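Under both other scalings, the 12 ratios of the main circRNAs and of the gene sums stayed inside their counting intervals and 0 of 24 values crossed 1; they moved to between 0.964 and 1.05 times the value as deposited, and circHIPK3 in T24 against SV-HUC-1 to 2.36 and 2.40. With circRNAs under 10 reads in every library left out, the share of the main HIPK2 circRNA became 100% in each line, since no other HIPK2 circRNA was left. The background counts moved more. Past 2-fold in J82, T24 (each against SV-HUC-1) and T24 against J82 were 1848, 1874 and 1643 circRNAs, against 5269, 5511 and 5207 with no filter, 776, 775 and 637 with a filter of 20 reads, and 680, 761 and 616 past 4-fold. With 5 times the pseudocount, which shrinks the differences of low levels, they were 1216, 1308 and 1165. For both cancer lines against SV-HUC-1, edgeR called 46 circRNAs (21 higher, 25 lower) where limma called 0, also with no filter and with 5 times the pseudocount; the cause was not tested. Over these fits the adjusted p of circHIPK3 lay between 0.711 and 0.883. Depth limits HIPK2 and the minor circRNAs, all under 15 reads in every library, and with 1 library per line no replicate could be left out.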
